A study of Mus musculus with 20 samples.

Results

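The 9 genes described here build, branch, break down or bind glycogen in skeletal muscle, and they were chosen by symbol as Stbd1, Gys1, Gyg, Pygm, Phka1, Phkg1, Gbe1, Ppp1r3a and Ppp1r3c. They were measured by 15 probe sets that the platform annotation gives to 1 gene each, of 34945 such probe sets for 18194 genes. The samples are mouse gastrocnemius, one of the muscles of the calf. In 10 of them the mice had been injected into the peritoneum with JA16, an antibody against the muscle growth inhibitor myostatin, and in 10 with saline. JA16 was given at 0.12 mg per g body weight on day 1 and at 0.09 mg per g on day 3, saline was given on the same days, and all mice were killed on day 5. The labels name no strain, sex, age or genotype, and no label states that each sample is a separate mouse, so the p-values cover only how these samples vary, and some of that may be technical.

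Glycogen is the store of glucose from which a contracting muscle fibre draws fuel. Glycogenin starts each particle by adding glucose to itself, glycogen synthase lengthens the chains and the branching enzyme adds branch points, while phosphorylase cuts glucose units off again. Phosphorylase kinase switches phosphorylase on, and protein phosphatase 1, held on the particle by targeting subunits, switches phosphorylase off and glycogen synthase on. Stbd1 encodes a membrane-anchored protein with a starch-binding domain that holds glycogen and has been tied to its delivery to lysosomes.

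Of the 9 genes, Stbd1 rose in JA16 muscle, by 1.70-fold, and none of the other 8 passed the test. The values are MAS5 intensities, the brightness of a probe set on a linear scale, and each log2 fold change (JA16 relative to saline) has a standard error (SE) from limma, with same-numbered samples of the groups treated as pairs. A probe set entered the test when its 20 samples averaged an intensity of 50.1 or more on the log scale, the middle of the array, and it was called at an adjusted p of 0.05 or less. Of the 15 member probe sets 14 were tested, and that of Ppp1r3a was too dim. Of the 14, 1 was called, against 0.2% of all 22517 tested probe sets (45, with 28 higher and 17 lower). With 1 probe set per gene the share called was 0.277% of 11200 genes, Stbd1 among them. Without the pairing, 0 of the 14 were called and 0.00888% of all tested probe sets were.

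The promoter of Stbd1 is shown because Stbd1 was the member called, and that of Ppp1r3c because both of its probe sets had the next highest fold changes. Both are from RefSeq on GRCm38.p6 and run from 250 bases before to 50 bases after the annotated start, 5′ to 3′ on the gene's own strand. They lie at chr5:92602801-92603100 (plus strand) and chr19:36736555-36736854 (minus strand), and capitals mark matches to the E-box letters CANNTG.
Stbd1: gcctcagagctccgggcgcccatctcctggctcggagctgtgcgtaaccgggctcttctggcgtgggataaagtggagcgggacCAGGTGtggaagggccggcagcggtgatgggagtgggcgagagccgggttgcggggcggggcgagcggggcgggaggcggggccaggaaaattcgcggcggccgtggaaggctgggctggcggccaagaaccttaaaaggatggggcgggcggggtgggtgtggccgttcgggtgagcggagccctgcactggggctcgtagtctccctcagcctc
Ppp1r3c: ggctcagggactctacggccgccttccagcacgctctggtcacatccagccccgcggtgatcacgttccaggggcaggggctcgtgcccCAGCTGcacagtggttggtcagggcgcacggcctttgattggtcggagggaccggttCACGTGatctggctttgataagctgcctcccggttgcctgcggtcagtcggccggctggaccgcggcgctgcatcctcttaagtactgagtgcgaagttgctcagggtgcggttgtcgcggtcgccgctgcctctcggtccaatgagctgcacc
The E-box letters, which read the same on both strands, occurred 1 time in the Stbd1 window and 2 times in that of Ppp1r3c. They were in the windows of all 9 members and in 72.3% of 32851 promoter windows. A form of the E-box with the letters CACGTG was in 2 of 9 members (Gyg and Ppp1r3c) and 7.15% of all windows. Another form, CAGCTG, was in 5 of 9 members and 16.3% of all windows. On either strand, CAGAC, the short Smad-binding letters, was in 1 member (Ppp1r3a) and 49.6% of all windows. The Stbd1 window was 70.7% G and C, more than 91.4% of the windows. These matches describe letters and say nothing of binding.

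Stbd1, the glycogen-binding protein, was measured by 1 probe set (1434442_at). Its intensity was 882 at the lowest, 1545 at the median and 2668 at the highest in JA16 samples, against 538, 994 and 1246 in saline samples. The groups overlapped, with 7 of 10 JA16 samples above every saline sample and 4 of 10 saline samples below every JA16 sample. The means were 1661 ± 644 in JA16 and 944 ± 246 in saline (SD, n = 10 each), and the log2 fold change was 0.76 (SE 0.14, 95% limits 0.46 to 1.07, limma adjusted p = 0.0453). Stbd1 ranked 41 of 22517 by p, close to the threshold.

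Within the pairs Stbd1 was higher in JA16 in 9 of 10, a count of at least 9 that 3.0% of all tested probe sets reached. The log2 difference was 1.30 in pair 6, the widest, and -0.31 in pair 2, where the JA16 sample was at 1007 and the saline sample at 1246. Pairs 7, 8 and 9 also exceeded 1, at 1.19, 1.26 and 1.27, and pair 3 was at 0.99. Pairs 1, 4, 5 and 10 lay between, at 0.44, 0.56, 0.71 and 0.21. Both groups held their lowest Stbd1 value in replicate 5.

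The Stbd1 call depended on the fit. Without the pairing the fold change was the same, with an SE of 0.21 and limma adjusted p = 0.9999. The call was also lost with array medians centred (0.83, adjusted p = 0.0928) and with the control-probe ratio described below as a covariate (0.67, SE 0.17, adjusted p = 0.391). With 1 pair left out the fold change ran from 0.70 to 0.88. The call held without pair 2 (adjusted p = 0.00874) and was lost without pair 1, 3, 4, 5, 6, 7, 8, 9 or 10 (adjusted p between 0.0526 and 0.138).

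**Figure D1:**
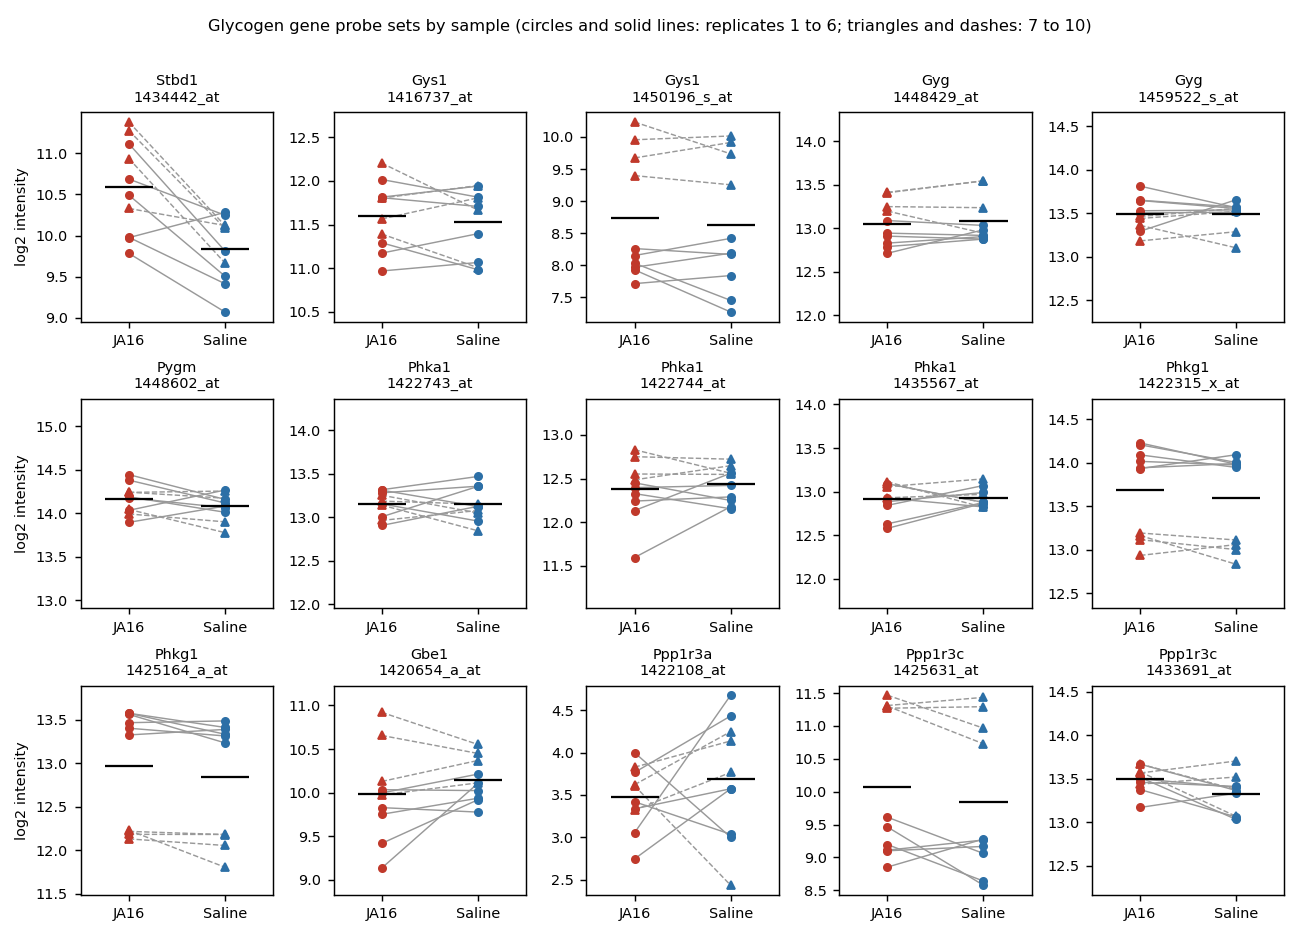
Log2 intensity of the 15 member probe sets in JA16 (left, red) and saline (right, blue) samples, 10 each, with grey lines joining same-numbered samples, circles and solid lines for replicates 1 to 6, triangles and dashed lines for replicates 7 to 10, and a black bar at each group mean. The Stbd1 lines run higher at JA16 in 9 of 10 pairs, and in 4 panels (Gys1 1450196_s_at, both of Phkg1 and Ppp1r3c 1425631_at) the triangles and circles do not overlap. Each vertical axis has its own range.

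The arrays form 2 sets that touch several of these probe sets. Control probe sets at the ends of the beta-actin transcript were compared as the log2 ratio of 3′ over 5′ intensity. It was 1.33 to 1.83 in JA16 and 1.69 to 1.84 in saline for replicates 1 to 6. In replicates 7 to 10 it was 0.50 to 0.58 in JA16 and 0.48 to 0.64 in saline. Within pairs it was lower in JA16 in 8 of 10, with a mean difference of -0.13. In replicates 7 to 10 Stbd1 averaged 2100 ± 619 in JA16 and 1033 ± 147 in saline (SD, n = 4 each), which is 0.98 on the log2 scale (SE 0.20, limma adjusted p = 0.713). In replicates 1 to 6 it averaged 1368 ± 511 in JA16 and 885 ± 292 in saline (SD, n = 6 each), at 0.62 (SE 0.17, limma adjusted p = 0.428). Stbd1 was thus higher in JA16 in 4 of 4 and in 5 of 6 pairs. The difference between the sets was not tested, and neither was the part of the control ratio in the Stbd1 result.

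Among the genes that build glycogen, none was called. Gyg encodes glycogenin, the primer of the particle. By probe set 1459522_s_at it averaged 11565 ± 1490 in JA16 and 11529 ± 1208 in saline, a log2 fold change of 0.0017 (SE 0.054), and by 1448429_at 8616 ± 1537 and 8824 ± 1754, at -0.032 (SE 0.049). The first turned to -0.072 with quantile normalization and the second to 0.037 with array medians centred, so Gyg has no stable direction. The 95% limits of the sets ran from 0.924-fold to 1.08-fold and from 0.911-fold to 1.05-fold.

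Gys1 encodes the muscle form of glycogen synthase. Probe set 1416737_at ran from 2002 through a median of 3301 to 4724 in JA16 samples and from 2023 through 3298 to 3950 in saline samples. The groups overlapped, with 2 JA16 samples above every saline sample and 5 pairs higher and 5 lower in JA16, and the log2 fold change was 0.07 (SE 0.081, limma adjusted p = 0.694). The dimmer set 1450196_s_at averaged 524 ± 367 in JA16 and 494 ± 341 in saline, at 0.11 (SE 0.11), again with 5 pairs each way.

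Gbe1, the branching enzyme, was the one member of the 3 that build glycogen whose log2 fold change lay below 0 by more than its SE. Its intensities were 562, 1013 and 1939 at the lowest, median and highest in JA16, against 877, 1104 and 1502 in saline. JA16 values spread more widely, with replicate 3 the lowest and replicate 7 the highest. The log2 fold change was -0.16 (SE 0.11, limma adjusted p = 0.47), with 4 pairs higher and 6 lower. Without pair 3, in which the difference was -0.97, it was -0.072, and in replicates 7 to 10 alone it was 0.049.

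Among the member genes that break glycogen down, Pygm, Phka1 and Phkg1 differed by at most 1.09-fold. Pygm, the muscle phosphorylase that is deficient in McArdle disease, was at 18452 ± 2230 in JA16 and 17394 ± 1780 in saline. It was higher in JA16 in 7 of 10 pairs, and its log2 fold change was 0.083 (SE 0.052, limma adjusted p = 0.441), or 0.013 with quantile normalization. JA16 samples 2 and 3 lay above every saline sample, and saline sample 7 lay below every JA16 sample.

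Phka1, the regulatory alpha subunit of the muscle form of phosphorylase kinase, had 3 probe sets. They averaged 9131 ± 915 in JA16 and 9158 ± 1234 in saline (1422743_at), 5447 ± 1194 and 5579 ± 780 (1422744_at), and 7772 ± 974 and 7828 ± 612 (1435567_at). Their log2 fold changes were 0.0007, -0.057 and -0.018, all within 1 SE of 0, and all 3 turned sign under at least one other setting. The 3 sets moved the same way in 7 of 10 pairs, 3 of them higher in JA16. In pair 2 all 3 were lower in JA16, at -0.35, -0.58 and -0.29, the pair in which Stbd1 was lower too.

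Phkg1, the catalytic gamma subunit of that kinase, had 2 probe sets, both higher in JA16. Set 1425164_a_at was at 8761 ± 3567 in JA16 and 8038 ± 3278 in saline, a log2 fold change of 0.13 (SE 0.052, unadjusted limma p = 0.028, adjusted p = 0.275), higher in 8 of 10 pairs. Set 1422315_x_at was at 13860 ± 4514 and 13103 ± 4242, at 0.082 (SE 0.049, adjusted p = 0.418), higher in 7 of 10. The ending x_at marks probes that can match other transcripts as well. The SDs are wide because intensities differed between the array sets, while the paired differences were narrow.

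The 2 targeting subunits of protein phosphatase 1 differed in how well they were measured. Ppp1r3c, also called protein targeting to glycogen, ran from 9215 through a median of 11639 to 13016 in JA16 and from 8371 through 10579 to 13337 in saline by set 1433691_at. It was higher in JA16 in 7 of 10 pairs, 3 saline samples lay below every JA16 sample, and the log2 fold change was 0.17 (SE 0.069, unadjusted limma p = 0.0277, adjusted p = 0.274). By set 1425631_at it was at 1401 ± 1033 in JA16 and 1210 ± 936 in saline, at 0.23 (SE 0.12, adjusted p = 0.368), with 5 pairs higher. With the control ratio as a covariate this set was at 0.083, and with quantile normalization 1433691_at was at 0.097. The sets moved the same way in 8 of 10 pairs, and both were higher in pairs 4 to 8.

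Ppp1r3a, the targeting subunit typical of striated muscle, was at 11.4 ± 2.81 in JA16 and 14.3 ± 6.52 in saline by its only probe set, under the 50.1 needed to be tested. The sample values ran from 6.7 to 16.0 in JA16 and from 5.4 to 25.6 in saline, and the groups overlapped. With no filter the log2 fold change was -0.22 (SE 0.38, limma adjusted p = 0.885), with 95% limits from 0.492-fold to 1.50-fold. At this signal a moderate change in either direction was not detectable.

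Over all 14 tested member probe sets, 10 were higher and 4 lower in JA16, with a median log2 fold change of 0.076, against -0.036 over all 22517 tested probe sets, of which 42.3% were higher. These counts moved with the scaling. With array medians centred 13 of the 14 were higher (median 0.15), against 56.7% of all probe sets (median 0.034), and with quantile normalization 8 of the 14 (median 0.014), against 48.9% (median -0.0045). An unadjusted p under 0.05 was reached by 3 of the 14, those of Stbd1, Phkg1 and Ppp1r3c, against 15.7% of all tested probe sets. Leaving out Stbd1, the 13 others ran from -0.16 to 0.23, with limma adjusted p between 0.274 and 0.997. Their 95% limits reached no further than -0.39 and 0.49, which is 0.761-fold and 1.40-fold.

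**Figure D2:**
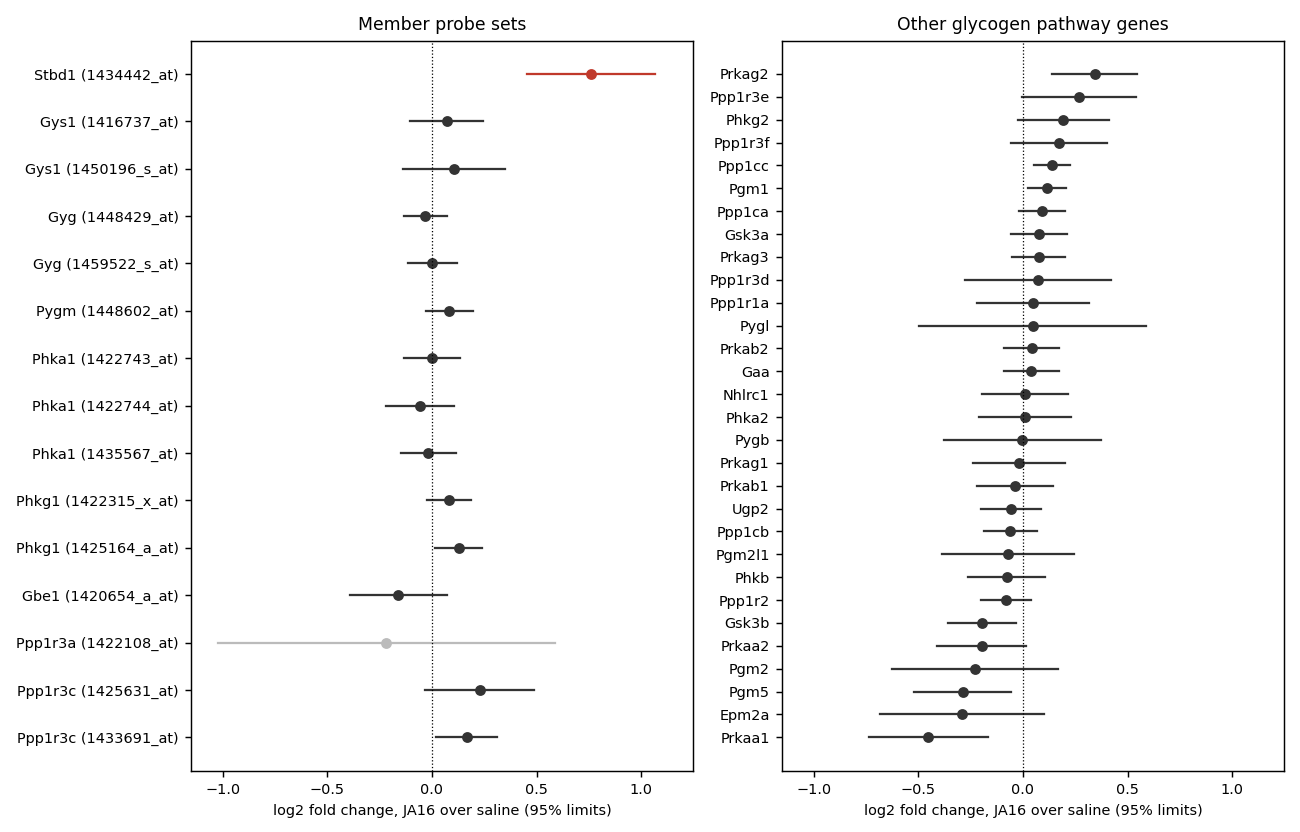
Log2 fold change, JA16 over saline, with 95% limits from limma, for the 15 member probe sets (left) and 30 other glycogen pathway genes by their brightest probe set (right), red where called, black where not, and grey for the untested Ppp1r3a set (fit with no filter). Stbd1 at 0.76 is the one red point, and the other 13 tested member sets lie between -0.16 and 0.23.

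**Figure D3:**
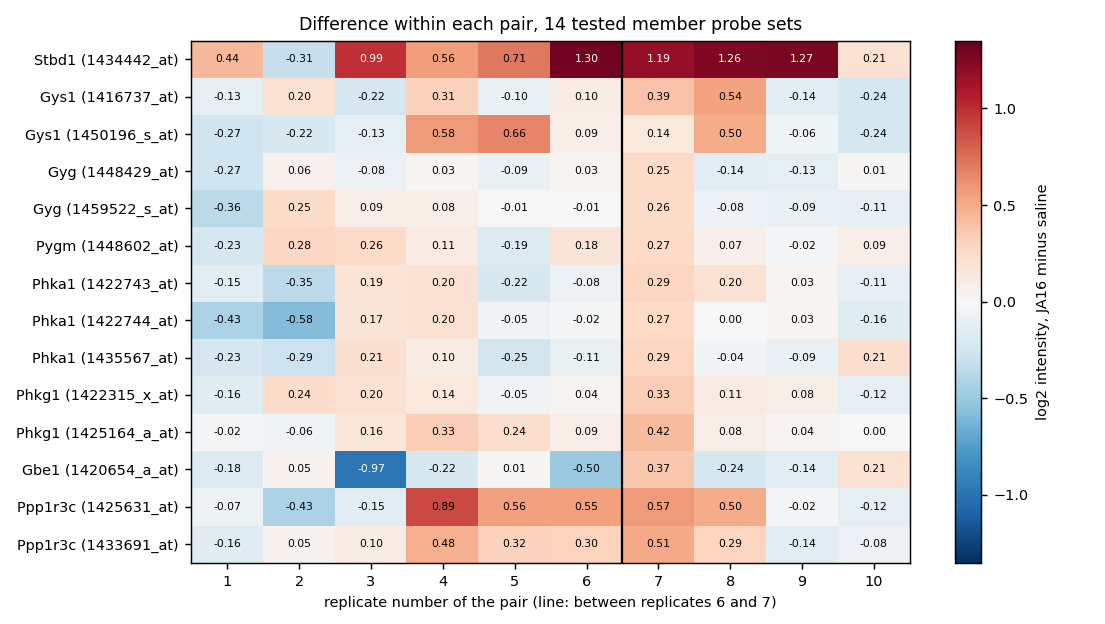
Log2 intensity difference, JA16 minus saline, in each of the 10 pairs (columns) for the 14 tested member probe sets (rows), coloured from blue (lower in JA16) to red (higher) and printed in each cell, with a line between replicates 6 and 7. The Stbd1 row is red in all pairs but pair 2, and both Ppp1r3c rows are red in pairs 4 to 8.

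Levels of 4 of the 15 member probe sets differed between the array sets so much that replicates 7 to 10 and 1 to 6 did not overlap, which held for 12.4% of all tested probe sets. Ppp1r3c 1425631_at averaged 2592 ± 163 in JA16 and 2244 ± 485 in saline in replicates 7 to 10, and 607 ± 117 in JA16 and 521 ± 106 in saline in replicates 1 to 6, a log2 difference between the sets of 2.11. Set 1433691_at of the same gene differed by 0.13. Gys1 1450196_s_at was likewise higher in replicates 7 to 10, by 1.82, and Gys1 1416737_at by 0.18.

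Both Phkg1 sets went the other way, at -1.30 for 1425164_a_at and -0.98 for 1422315_x_at. Stbd1 differed by 0.46 between the array sets and the sets overlapped. The probe sets of Gys1, and those of Ppp1r3c, thus differed in how far the array sets lay apart, while both Phkg1 sets shifted alike. The control-probe ratio separates the same samples, and its part in these levels was not tested.

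**Figure D4:**
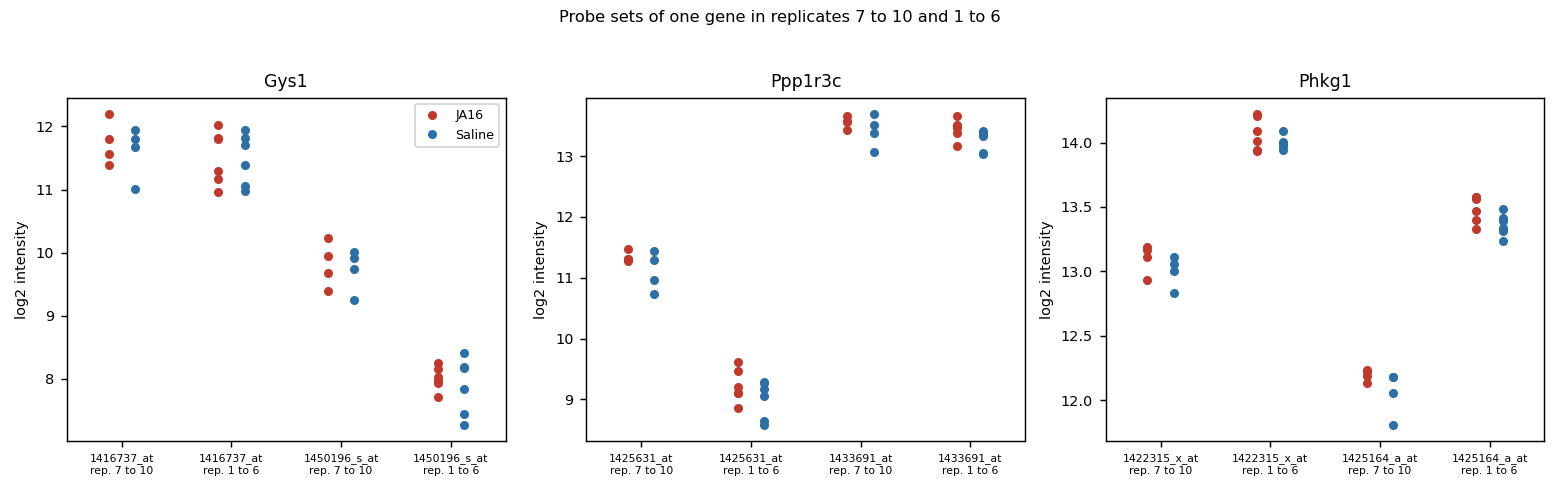
Log2 intensity of each sample for the 2 probe sets each of Gys1, Ppp1r3c and Phkg1, in replicates 7 to 10 and 1 to 6, with JA16 in red to the left of saline in blue. Gys1 1450196_s_at and Ppp1r3c 1425631_at are higher in replicates 7 to 10, by 1.82 and 2.11, both Phkg1 sets are lower there, and the other sets of Gys1 and Ppp1r3c overlap.

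Of 37 other genes of glycogen metabolism, 33 had a single-gene probe set, 30 were tested and 0 were called in limma, with the lowest adjusted p at 0.174. An unadjusted p under 0.05 was reached by 6 of the 30, against 15.7% of all tested probe sets. Without the pairing 0 were called as well. Of the 30, 16 were higher and 14 lower in JA16, with a median log2 fold change of 0.011. Over all tested probe sets 42.3% were higher (median -0.036), and with 1 probe set per gene 45.8% were (median -0.016). The calmodulin genes, which supply a subunit of phosphorylase kinase, are not analysed here because no probe set is assigned to one of them alone.

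The highest values were those of Prkag2, a regulatory subunit of the energy sensor AMPK, at 0.34 (SE 0.095, adjusted p = 0.174), Ppp1r3e, a further glycogen targeting subunit, at 0.27 (SE 0.13), and Phkg2, the liver form of the kinase's catalytic subunit, at 0.19 (SE 0.10). Prkag2 averaged 373 ± 89.7 in JA16 and 295 ± 68.6 in saline and was higher in 10 of 10 pairs, while the groups overlapped. The lowest were Prkaa1, a catalytic subunit of AMPK, at -0.45 (SE 0.13, adjusted p = 0.19), Epm2a, the glycogen phosphatase laforin, at -0.29 (SE 0.18), and Pgm5, a relative of phosphoglucomutase, at -0.29 (SE 0.11). Prkaa1 averaged 240 ± 111 in JA16 and 307 ± 82.3 in saline and was lower in 9 of 10 pairs.

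Among the other genes that act directly with the members, the remaining 2 tested phosphorylase kinase subunits were Phka2 at 0.01 (SE 0.10) and Phkb at -0.078 (SE 0.086). The catalytic subunits of protein phosphatase 1 were at 0.14 for Ppp1cc (SE 0.041, higher in 9 of 10 pairs), 0.091 for Ppp1ca (SE 0.051) and -0.061 for Ppp1cb (SE 0.059). The kinase genes Gsk3a and Gsk3b, whose products phosphorylate glycogen synthase, were at 0.077 (SE 0.062) and -0.20 (SE 0.077). Ugp2, which makes the UDP-glucose used by glycogen synthase, was at -0.057 (SE 0.066), and Pgm1, which interconverts glucose phosphates, was at 0.12 (SE 0.042), with 1 of its 2 probe sets in this direction. Adjusted p was at least 0.19 for each of these.

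By list, 2 of 3 other phosphorylase kinase subunits were higher, as were 1 of 5 synthesis and sugar phosphate enzymes, 2 of 3 breakdown enzymes, 6 of 8 phosphatase genes and 5 of 11 regulators, with 0 called in each.

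The muscle identity of the samples was checked with fibre markers. All 6 (Ckm, Acta1, Mylpf, Tnnt3, Myh4 and Mb) were tested, with a list mean of 14.2 to 14.7 in JA16 and 14.2 to 14.5 in saline on the log2 scale. Fast fibre genes, which go with glycolytic fibres, were higher for 7 of 8 (list mean 14.5 in JA16 and 14.4 in saline), but the difference of the list means, 0.032, turned to -0.032 with quantile normalization. Without pair 2 it was 5 of 8. Slow fibre genes were lower for 7 of 7, with list means of 8.72 to 13.98 in JA16 and 12.4 to 13.7 in saline. JA16 replicate 3 stood apart at the low end: it held the lowest JA16 value of all 7 slow genes, and its list mean of 8.72 lay below the next lowest of 11.96. JA16 replicate 2 held the highest value of all 7, above every saline sample, with a list mean of 13.98. Without pair 3 the difference of the slow list means was -0.23, against -0.63 with it, and 6 of 7 genes were lower. In pair 3 Stbd1 was higher by 0.99, and without that pair the Stbd1 value was 0.74. In pair 2 the slow list mean was higher in JA16, and Stbd1 was at -0.31, the only pair in which Stbd1 was lower. Without pair 2 the difference of the slow list means was -0.85 and the Stbd1 value was 0.88. The slow list mean was also higher in JA16 in pair 1, where Stbd1 was higher, at 0.44. Markers of nerve and Schwann cells were lower for 6 of 6 (8.17 to 9.90 in JA16, 8.76 to 10.2 in saline), of fibroblasts and tendon for 6 of 6 (8.85 to 10.5 and 9.82 to 10.9), of adipocytes for 3 of 3 (7.05 to 11.2 and 8.05 to 9.61) and of macrophages and leukocytes for 4 of 6 (8.70 to 10.5 and 8.63 to 11.2). The adipocyte list means also take in Lep, which was too dim to be tested and is not among the 3. The macrophage and leukocyte count turned to 6 of 6 higher without pair 7, the fibroblast and tendon count was 5 of 6 without pair 3, 7 or 10, and the adipocyte list median of -0.38 ran from -0.91 without pair 1 to -0.16 without pair 10. Adipoq had a higher mean intensity in JA16 (1092, against 841 in saline) but a log2 fold change of -0.56. Blood markers had 1 tested member, Alas2, which was lower. None of these genes was called, and their part in the Stbd1 result was not tested. Fewer cells of a type and less RNA per cell cannot be told apart in whole muscle.

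The genes whose pattern over the 10 pairs was most like that of Stbd1 were ranked by Pearson's r of the pair differences among 11199 other genes, 1 probe set each. They were Fzr1 (r = 0.94), Gpr146 (r = 0.93), Rchy1 (r = 0.91), Sra1 (r = 0.91) and BC031181 (r = 0.91), with Spearman's rho of 0.89, 0.94, 0.85, 0.90 and 0.85. Without the 2 pairs farthest from the Stbd1 median r was 0.86, 0.88, 0.83, 0.97 and 0.70. They were picked as the highest of many, all pairs share the same arrays, and no test applies. Their log2 fold changes ran from 0.11 to 0.22, and none was called. Among the members r with Stbd1 ran from -0.32 for Gbe1 to 0.74 for Phka1 1422744_at.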

How the data were processed

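The authors deposited 1 table with an array intensity for each probe set in each sample. The submitters' processing notes name MAS5 for it and give no version, and they leave unstated how arrays were scaled or masked. With the outer 2% of values trimmed at each end, the arrays shared one mean intensity, while their medians ran from 38.9 to 77.1. The 5 values not above 0 were replaced by 0.1 before log2 was taken. Of 45101 probe sets, 64 controls were left out, and the 22517 with a mean log2 intensity of at least 5.65 were tested. R 4.3.3 and limma 3.58.1 gave the fit, in which the replicate number was a block (lmFit) and the variance prior followed intensity (eBayes). Its tests were two-sided, and p-values were adjusted by Benjamini-Hochberg across every tested probe set. Scripts were tested on simulated data. Tables used pandas 2.3.3 and numpy 2.4.6 and figures matplotlib 3.10.9. The number of arrays limits the precision.

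Same-numbered samples were taken as pairs. Their deviations from the group means correlated at 0.449 to 0.783 in all 10 pairs, above the limit of 0.1, against a median of -0.13 for different numbers. Same-numbered samples always lie in the same array set, while those of different numbers include samples of different sets. The comparison therefore cannot tell pairing by number from the array sets. A JA16 sample correlated best with its own saline partner in 5 of 10 cases, and a saline sample with its JA16 partner in 6 of 10. The saline array has the lower number in every pair, so array order and treatment cannot be told apart. Correlations between arrays ran from 0.879 to 0.936, so no sample was a copy of another.

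Symbols came from the platform annotation, checked by gene identifier against RefSeq on GRCm38.p6. All 9 members had a RefSeq promoter window, and no protein sequence was used. The members, the lists and the array sets were chosen with earlier results of these data known. Named are all members, from the pathway lists those called, the 3 highest, the 3 lowest and those that act directly with a member, and the 5 genes most like Stbd1. The pathway genes in the closing paragraph lie outside this rule. The marker lists without each pair were computed after seeing the data. The alternatives tried were the fit without the block, 1 probe set per gene, no filter and a stricter one (the 75th percentile), quantile normalization, centred medians, an offset of 50, each array set alone, the control ratio as a covariate and each pair left out.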

Additional observations from a re-analysis of the deposited data

How the results depend on the processing

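Of 45 called probe sets and 1 called member probe set, the fit without the replicate block left 2 and 0, centred array medians 13 and 0, the control ratio as a covariate 2 and 0, and each array set alone 0 and 0, with fewer samples. With 1 probe set per gene and no block, a setting chosen after seeing the data, 4 genes and 0 members were called. With 1 pair left out 7 to 52 probe sets and 0 to 1 member sets were called. The cause was not tested. The block changed no member's call other than that of Stbd1. The Stbd1 call held with no filter (adjusted p = 0.0499), the stricter filter (0.0328), quantile normalization (0.044), the offset (0.0423) and 1 probe set per gene (0.0394), and its direction held under every setting run. Several values near 0 turned sign. With quantile normalization Gyg 1459522_s_at was at -0.072 and Phka1 1422743_at at -0.056. With centred medians Gyg 1448429_at was at 0.037, Phka1 1422744_at at 0.012, Phka1 1435567_at at 0.052, Ugp2 at 0.013 and Ppp1cb at 0.0084. In replicates 7 to 10 alone Gyg 1459522_s_at was at -0.0052, Phka1 1422744_at at 0.035, Phka1 1435567_at at 0.094, Gbe1 at 0.049, Phka2 at -0.077, Phkb at 0.012 and Ugp2 at 0.040. In replicates 1 to 6 alone Phka1 1422743_at was at -0.069. With the control ratio Phka1 1435567_at was at 0.023, Phka2 at -0.012, Phkb at 0.011 and Ugp2 at 0.010. With 1 pair left out Gyg 1459522_s_at ran from -0.027 to 0.042, Phka1 1422743_at from -0.032 to 0.039, Phka1 1422744_at from -0.093 to 0.0018, Phka1 1435567_at from -0.052 to 0.013 and Phka2 from -0.059 to 0.043.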

Other observations

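Of the pathway genes not yet described, 3 were too dim to be tested. Gys2, the liver form of glycogen synthase, was at 29.8 in JA16 and 15.1 in saline on average, under the intensity needed to be tested, and with no filter its log2 fold change was 1.12 (SE 0.41, limma adjusted p = 0.372), higher in 7 of 10 pairs. Ppp1r3b, the liver targeting subunit, was at 36.2 in JA16 and 39.6 in saline, and Ppp1r3g at 9.40 and 15.1, neither of them tested. Pygl, the liver phosphorylase, was at 138 in JA16 and 127 in saline, with a log2 fold change of 0.047 (SE 0.26). Pygb, the brain phosphorylase, was at 290 in JA16 and 282 in saline, at -0.0023 (SE 0.18), and Gaa, the lysosomal enzyme that digests glycogen, was at 5595 and 5484, at 0.04 (SE 0.061). These genes were named after their values were seen, none of the tested ones was called, and 0 of the 30 groups of member values held a sample set apart from the other 9 by Dixon's gap test. For 4 of the 15 member probe sets the array sets did not overlap. That widens the range by which the test divides the gap, so it could miss a lone sample there.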
